A study of Cucumis sativus with 18 samples.

Results

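In cucumber (Cucumis sativus) ovary culture, 72 of the 23248 genes listed had a high level in fresh ovaries, a lower level at days 2, 10, 20 and 30, and a level at day 60 close to that of fresh ovaries. They were chosen by their mean RPKM (reads scaled to a gene's length in kilobases and to a library's total in M reads, M standing for mega) over the 3 libraries of each time. A gene was a member when its means in fresh ovaries and at day 60 were at least 5 RPKM, when these means, each with 1 added, lay under 2-fold apart, and when the lower of them was at least 2 times the highest of the 4 means between, with 1 added to each. The quotient of these last values is called the ratio below. A limit of 200 genes was set on the list and was not reached. The values of all 6 times thus chose the members, so their high and low levels are a description and were not tested.

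The study followed unpollinated ovaries put into culture, and sampled fresh ovaries, ovules cultured for 2 days, and embryos cultured for 10, 20, 30 and 60 days, each in 3 libraries. No genotype, cultivar, medium or donor plant is named in the labels, and all groups share the cucumber ovary as source tissue. What was taken changed with time, as the labels name ovaries, then ovules, then embryos, while the tissue label reads ovary throughout. Time and sampled material therefore cannot be told apart at these steps. In bulk RNA, fewer cells of a type and less RNA per cell cannot be told apart either. The design states biological replicates, but nothing says which plants or cultures they came from, so p-values measure the spread between these libraries.

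Ovary culture is used in cucurbits to obtain embryos from unfertilised ovules, a process called gynogenesis. An embryo that arises from a cell of the unfertilised embryo sac can be haploid, and doubling its chromosomes gives a fully homozygous plant, which breeders use as a pure line. The cucumber ovary lies below the flower and holds many ovules in fleshy placental tissue, so a whole ovary, an ovule and an embryo differ in the cell types they contain.

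The libraries held 21.8 to 34.0 M reads assigned to genes in replicates 1 and 2 and 48.9 to 72.5 M in replicate 3, worked out from the steps of the RPKM values. Replicate 1 of day 10 and replicate 1 of day 20 have the fewest genes above 0, 17653 and 18591, against 19121 to 20517 in the other 16 libraries. The members were touched by this: 10 of the 72 had 0 reads in replicate 1 of day 10 and 7 in replicate 1 of day 20, against 0 or 1 in each other library. The files do not pair the gene IDs with names, and 0 of the 23248 IDs matched the RefSeq gene table of cucumber, so the members are given by ID, with no role, sequence or position. For the same reason the labels ovary, ovule and embryo were not checked against marker genes. Reads of 0 were not the only difference by replicate number. Csa6G012280 and Csa2G150010, the latter named after its values were seen, were highest in replicate 3 at every time. Csa7G336450 was highest in replicate 1 at every time. Members of either kind were not counted, and the cause was not tested.

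The median level of the 72 members was 20.4 RPKM in fresh ovaries, 3.66 at day 2, 2.37 at day 10, 2.86 at day 20, 7.41 at day 30 and 19.1 at day 60. The median gene of the 72 was thus lowest at day 10 and day 20 and already higher at day 30, before the level of day 60. The members spanned a wide range, from 5.72 to 817 RPKM in fresh ovaries and from 5.24 to 1009 RPKM at day 60. At day 10 their means lay between 0.164 and 116 RPKM, and 17 of the 72 were under 1 RPKM. Under 1 RPKM there were 7 members at day 2, 14 at day 20 and 2 at day 30. By library, the median over the members was 19.6 to 22.4 RPKM in fresh ovaries and 3.40 to 4.04 at day 2. It was 2.08 to 2.90 RPKM at day 10, 2.48 to 3.30 at day 20 and 6.80 to 7.37 at day 30. At day 60 it was 18.9 to 19.9 RPKM. Replicate 3 had the highest of these medians at every time.

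**Figure D1:**
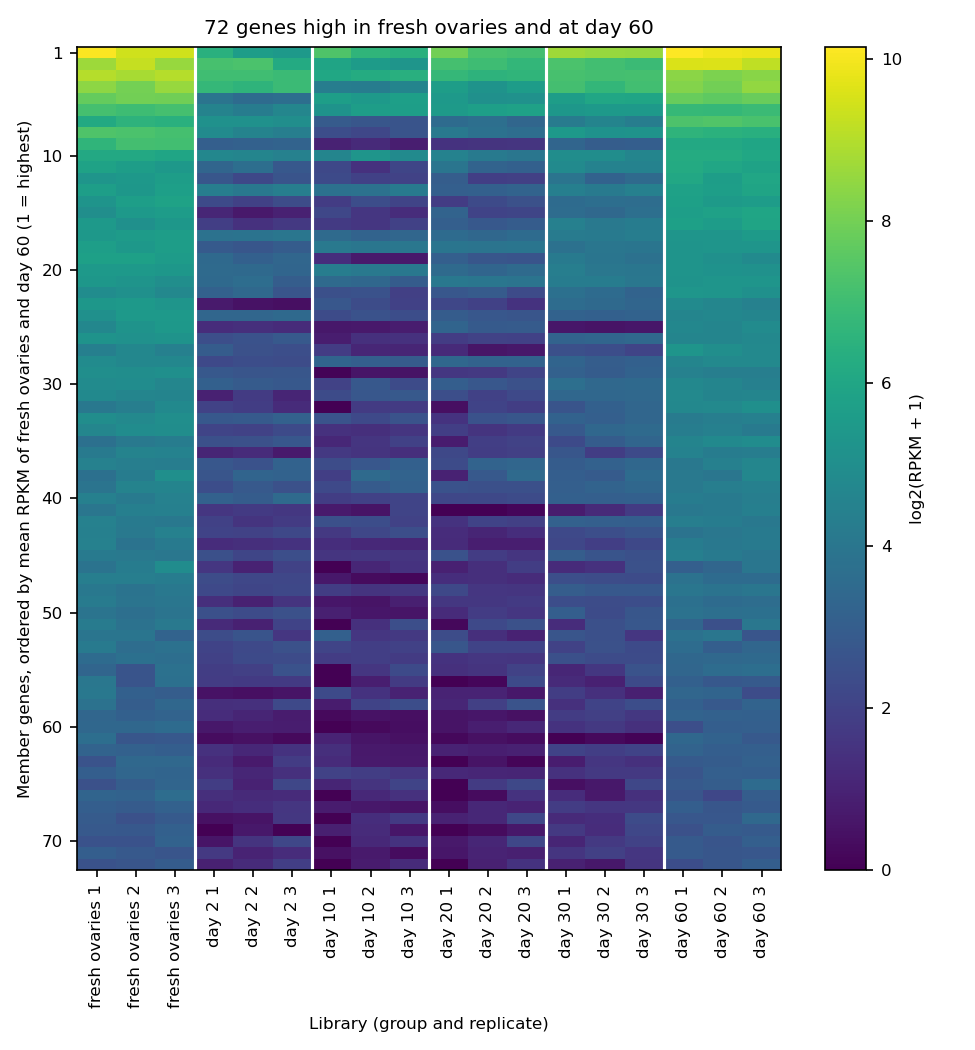
Level of each of the 72 members (rows, highest mean of fresh ovaries and day 60 at the top) in the 18 libraries (columns, by time and replicate), coloured by log2(RPKM + 1). The 3 columns of fresh ovaries and the 3 of day 60 are brighter than the 12 between, and dark cells at 0 gather in replicate 1 of day 10 and day 20.

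The ratio was 2.33 in the median member and was modest for most, with 47 of 72 under 2.5. It reached 3 in 15 members and 4 in 6. Of the members, 70 had each of their 6 libraries of fresh ovaries and day 60 above each of their 12 libraries of days 2 to 30. Among all 18153 genes tested, 5.16% had this property, but the rule chose for it, so nothing is read from this count. The pair of members with an overlap, Csa3G914580 and Csa4G646120, were named after their values were seen. Csa3G914580 had 5.37 RPKM in the lowest library of the high times, replicate 3 of day 60, against 7.63 in the highest of the low times, replicate 1 of day 10. Csa4G646120, with a length of 246 bases, had 4.51 RPKM in replicate 2 of day 60, on 36 reads, against 5.84 in replicate 3 of day 30.

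Csa1G338930 had the highest ratio, 7.52. Its levels were 99.1, 139 and 135 RPKM in fresh ovaries, 7.48, 7.93 and 8.49 at day 2, and 0.973, 1.28 and 0.810 at day 10. They were 1.79, 1.86 and 1.97 RPKM at day 20, 8.95, 6.92 and 7.10 at day 30, and 67.9, 69.7 and 61.6 at day 60. The gene was thus low from day 2 on, lowest at day 10, with day 30 libraries that overlapped those of day 2, and at day 60 below each library of the fresh ovaries.

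Csa1G060760 came next, with a ratio of 5.77. It had 14.8, 19.7 and 20.7 RPKM in fresh ovaries, 2.08, 2.33 and 2.15 at day 2, and 0.678, 0.461 and 3.18 at day 10. At day 20 only replicate 3 held reads of it, 7 in number, for 0, 0 and 0.127 RPKM. It had 0.725, 1.33 and 2.36 RPKM at day 30 and 15.7, 16.8 and 19.6 at day 60. The libraries of day 60 overlapped those of fresh ovaries for this gene.

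Csa7G336450 and Csa3G556210 were the most abundant members. Csa7G336450 had 1094, 682 and 676 RPKM in fresh ovaries, 85.8, 49.5 and 43.5 at day 2, and 163, 99.2 and 85.1 at day 10. It had 250, 151 and 139 RPKM at day 20, 414, 388 and 371 at day 30, and 1135, 965 and 926 at day 60. After day 2 each mean of this gene was above the one before, so that its ratio, set by day 30, was 2.09. Replicate 1 was the highest of the 3 libraries at every time for this gene.

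Csa3G556210 had 408, 608 and 382 RPKM in fresh ovaries, 144, 152 and 72.1 at day 2, and 60.4, 46.9 and 38.0 at day 10. It had 140, 128 and 106 RPKM at day 20, 153, 134 and 119 at day 30, and 763, 791 and 573 at day 60. This gene was lowest at day 10, as Csa1G338930 was, and its levels at day 20 and day 30 overlapped.

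**Figure D2:**
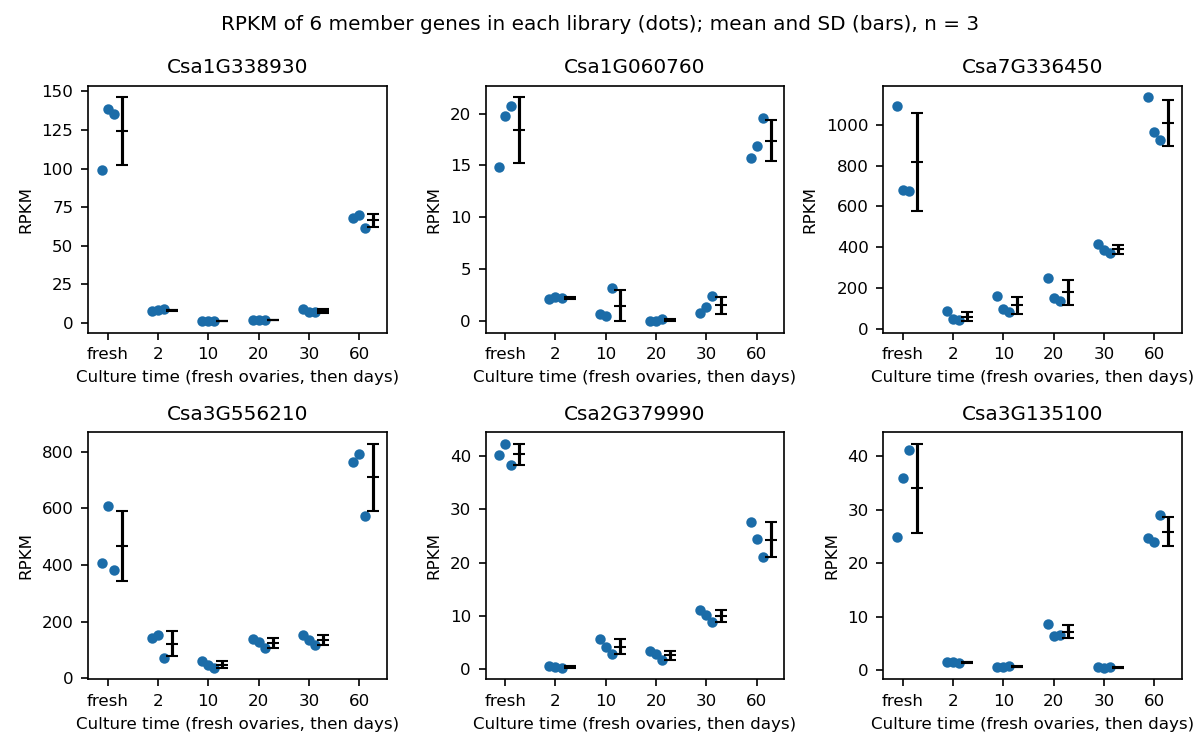
RPKM (vertical axes, linear) against culture time (horizontal axes) for 6 members, with 1 dot per library and the mean ± SD of 3 libraries beside them. Csa7G336450 has a higher mean at each time after day 2, Csa3G135100 stands out at day 20 among its low times, and Csa1G338930 is higher in fresh ovaries, at 99.1 to 139 RPKM, than at day 60.

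The members just inside and just outside the limit were Csa4G051430, with a ratio of 2.01, and Csa4G644630, with 1.999. Csa4G051430 averaged 49.2 ± 7.14 RPKM in fresh ovaries, 24.0 ± 3.66 at day 30 and 64.2 ± 8.26 at day 60 (SD, n = 3 each). Csa4G644630, which is no member, averaged 36.4 ± 1.43, 17.7 ± 2.83 and 38.9 ± 1.82 RPKM at these times. In both genes the day 30 mean set the ratio, and the ratios of the pair are nearly the same.

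At day 60 the members lay near their fresh level by construction, and the difference within the 2-fold limit is given without a test. The mean with 1 added was higher at day 60 than in fresh ovaries for 23 members and lower for 49, with a median log2 difference of -0.09. Over all 18153 genes tested this median was 0.08. Of the 72, 36 lay within 1.2-fold of their fresh level. The member farthest above was Csa2G006260, with 160, 168 and 152 RPKM at day 60 against 71.3, 94.6 and 86.9 in fresh ovaries, 1.89 times as much with 1 added to each mean. The member farthest below was Csa6G012280, with 7.30, 9.11 and 14.99 RPKM at day 60 against 13.5, 18.1 and 29.8 in fresh ovaries, or 0.534 times. The libraries of day 60 and fresh ovaries did not overlap in Csa2G006260, while they overlapped in Csa6G012280. Within each replicate number day 60 was still the lower in Csa6G012280, though the labels give these numbers no meaning.

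**Figure D3:**
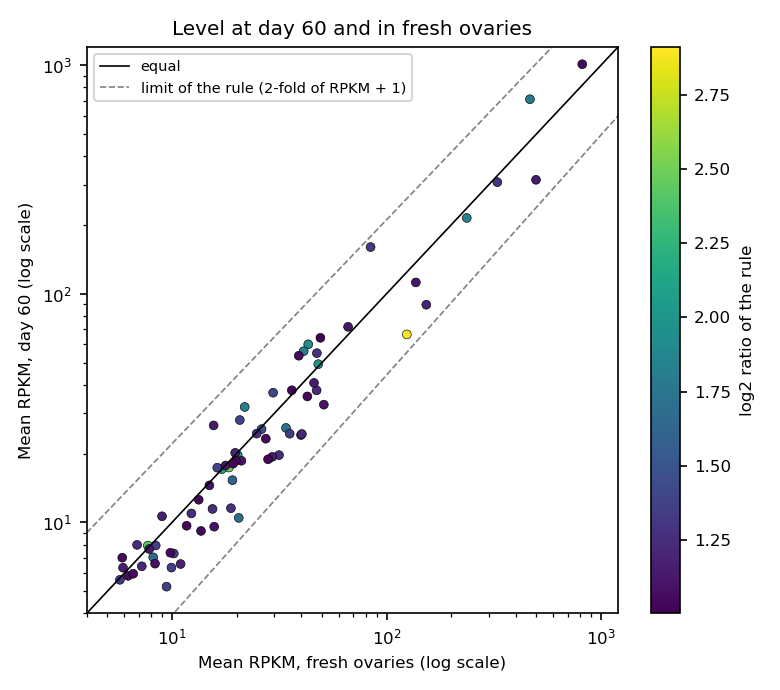
Mean RPKM at day 60 (vertical, log scale) against fresh ovaries (horizontal, log scale) for the 72 members, coloured by the log2 of the ratio, with the line of equal levels and the 2-fold limits of the rule dashed. Of the points, 23 lie above and 49 below equality, counted on the means with 1 added, and Csa1G338930, with the highest ratio, lies near the lower limit.

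The rule used days 2, 10, 20 and 30 through the highest of their means, which it capped, and did not use the order of these times or the differences between them. The cap can still limit such differences in the members and not in other genes, so shares over all genes tested stand beside the members' counts as a background and not as a test of the list. Differences among the 4 times were tested with limma on log2(RPKM + 1) over all 18153 genes, with Benjamini-Hochberg adjusted p-values and a call at adjusted p under 0.05. All 72 members were among the genes tested, 71 of them also by their 12 libraries of days 2 to 30 alone and 1, Csa1G049450, named after its values were seen, only through fresh ovaries and day 60. Over these 4 times 57 members varied by limma's F test, or 79.2%, beside 77.8% of all genes tested, a share near the background. Of the 4 times, day 30 had the highest mean in 50 members, day 2 in 12, day 10 in 6 and day 20 in 4. Day 10 had the lowest mean in 37 members, day 2 and day 20 in 16 each, and day 30 in 3. Day 30 was thus the highest in 69.4% of members and day 10 the lowest in 51.4%, beside 38.1% and 28.6% of all genes tested.

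Embryos at day 10 were set against ovules at day 2. Of the 72 members 30 fell and 14 rose, or 41.7% and 19.4%, beside 31.9% and 21.9% of all genes tested. The median log2 fold change of the members was -0.46, and that of all genes tested was -0.11. Csa3G002810 fell to 1.501, 0.649 and 0.627 RPKM at day 10, against 9.93, 7.60 and 9.19 at day 2 (log2 fold change -2.39, SE 0.17, limma adjusted p = 1.25e-08). Csa2G030610, one of the abundant members, fell to 18.9, 18.4 and 23.0 RPKM at day 10, against 107, 95.7 and 121 at day 2 (log2 fold change -2.37, SE 0.17, limma adjusted p = 1.35e-08). In neither gene did libraries of these times overlap.

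Csa3G760500 and Csa2G379990 had the largest called rises at this step on the log2(RPKM + 1) scale, which understates changes of low genes. Csa3G760500 had 50.4, 42.2 and 51.8 RPKM at day 10, against 14.2, 10.8 and 11.5 at day 2 (log2 fold change 1.90, SE 0.13, limma adjusted p = 5.76e-09). Csa2G379990 had 5.69, 4.13 and 2.90 RPKM at day 10, against 0.671, 0.411 and 0.344 at day 2, with 75, 32 and 60 reads in these day 2 libraries (log2 fold change 1.80, SE 0.19, limma adjusted p = 7.21e-07). Both had their lowest level of the whole culture at day 2, where the first pair had it at day 10. Without replicate 1 of day 10, 9 members rose at this step in place of 14, and 27 fell in place of 30. Without replicate 1 of both day 10 and day 20, 13 rose and 32 fell.

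Embryos at day 20 and day 10 differed less. Of the members 19 rose and 8 fell, or 26.4% and 11.1%, beside 16.4% and 14.5% of all genes tested, and the median log2 fold change was 0.20 for the members and 0.01 for all genes tested. Without replicate 1 of these times 18 members rose and 8 fell. Csa3G135100 rose to 8.57, 6.39 and 6.60 RPKM at day 20, against 0.566, 0.619 and 0.751 at day 10 (log2 fold change 2.31, SE 0.15, limma adjusted p = 1.15e-08). Csa3G002810, which had fallen by day 10, rose to 7.52, 5.63 and 5.15 RPKM at day 20, against 1.501, 0.649 and 0.627 at day 10 (log2 fold change 1.90, SE 0.17, limma adjusted p = 5.36e-07). The libraries did not overlap in either gene.

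Among the 8 that fell, the largest changes were those of Csa1G060760 and Csa6G516920. Csa1G060760 had 0, 0 and 0.127 RPKM at day 20, against 0.678, 0.461 and 3.18 at day 10 (log2 fold change -1.06, SE 0.30, limma adjusted p = 0.0142). The call rests on replicate 3 of day 10, which held 151 reads of the gene against 13 and 12 in the other two libraries, and without it the log2 fold change was -0.59 and did not pass. Csa6G516920 had 1.45, 1.09 and 1.496 RPKM at day 20, against 2.20, 3.53 and 4.45 at day 10 (log2 fold change -0.88, SE 0.17, limma adjusted p = 0.000991).

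Embryos at day 30 were set against day 20, the step that comes before the high level of day 60. Here 49 of the 72 members rose and 1 fell, or 68.1% and 1.39%, beside 38.1% and 16.9% of all genes tested. The median log2 fold change was 0.82 for the members and 0.24 for all genes tested, so the members' median lay 0.58 above that of all genes. Scaling moves both values: by median-ratio scaling the medians were 0.59 and 0.02, which lie 0.57 apart, and 43 members rose and 4 fell. All genes tested then had 48.9% of their calls higher at day 30, compared with 69.3% as deposited. Upper quartile scaling gave medians of 0.70 and 0.12, with 48 members that rose and 2 that fell. Without replicate 1 of day 10 and day 20, 50 rose and 2 fell.

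Csa2G379990 had 11.1, 10.2 and 8.90 RPKM at day 30, against 3.46, 2.89 and 1.80 at day 20 (log2 fold change 1.60, SE 0.19, limma adjusted p = 3.30e-06). Csa6G491640 had 5.24, 7.65 and 9.14 RPKM at day 30, against 0.327, 3.13 and 2.60 at day 20, on 5 reads in the first of these day 20 libraries (log2 fold change 1.60, SE 0.45, limma adjusted p = 0.00722). All libraries of day 30 lay above those of day 20 in both genes. With 0.1 added to the RPKM in place of 1, the call for Csa6G491640 was lost, at a log2 fold change of 2.23.

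The member that fell was Csa3G135100. It had 0.538, 0.468 and 0.548 RPKM at day 30, against 8.57, 6.39 and 6.60 at day 20 (log2 fold change -2.42, SE 0.15, limma adjusted p = 2.79e-09). With 34.0 ± 8.31 RPKM in fresh ovaries and 25.9 ± 2.77 at day 60 (SD, n = 3 each), this gene was high, low, at an intermediate level at day 20, low once more and then high. It was 1 of 2 members under 1 RPKM at day 30.

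**Figure D4:**
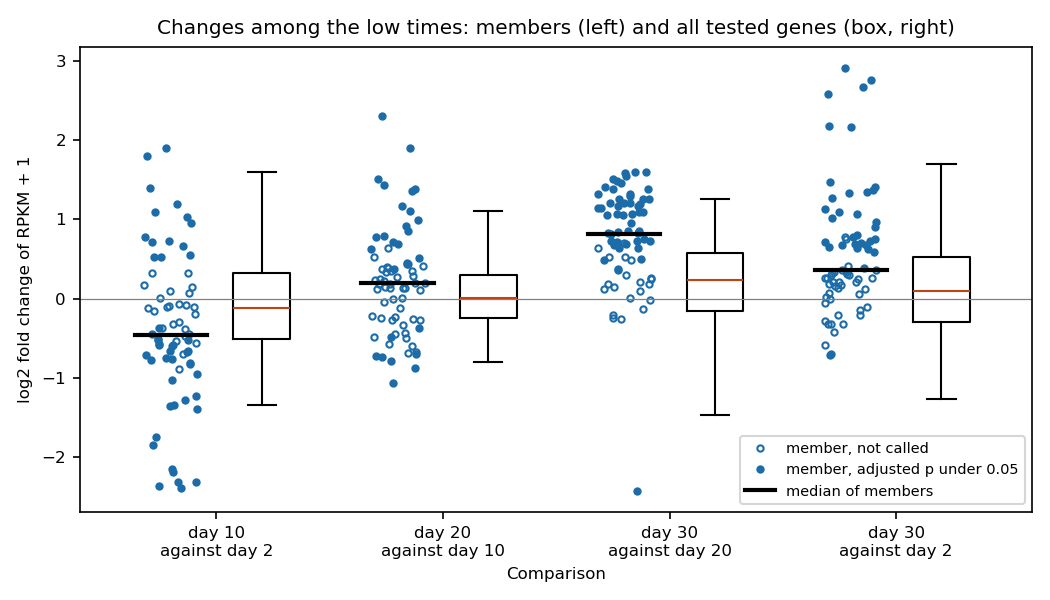
Log2 fold change of RPKM + 1 (vertical) at 4 comparisons among the low times, with 1 dot per member (filled where limma's adjusted p was under 0.05, a black line at their median) left of a box for all genes tested (quartiles, red median, whiskers at percentiles 5 and 95). At day 30 against day 20 most dots are filled and above 0, with 1 filled dot below, and at day 10 against day 2 the filled dots lie on both sides.

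Embryos at day 30 were also set against ovules at day 2, to ask whether the low times began and ended at like levels. Of the members 33 rose and 2 fell, or 45.8% and 2.78%, beside 30.3% and 20.6% of all genes tested, with a median log2 fold change of 0.37 for the members and 0.10 for all genes tested. Without replicate 1 of day 10 and day 20, which share the estimate of the spread, 36 rose and 2 fell. Csa2G379990 had 11.1, 10.2 and 8.90 RPKM at day 30, against 0.671, 0.411 and 0.344 at day 2 (log2 fold change 2.91, SE 0.19, limma adjusted p = 2.50e-09). Csa7G336450 had 414, 388 and 371 RPKM at day 30, against 85.8, 49.5 and 43.5 at day 2 (log2 fold change 2.75, SE 0.28, limma adjusted p = 6.07e-07). These genes were at day 30 well above the level they had after 2 days, and still below that of fresh ovaries and of day 60.

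The pair that fell was Csa2G006260 and Csa3G135100. Csa2G006260 had 17.6, 23.1 and 18.9 RPKM at day 30, against 33.7, 34.2 and 31.0 at day 2 (log2 fold change -0.71, SE 0.12, limma adjusted p = 0.000159). It was also the member with the largest excess of day 60 over fresh ovaries. Csa3G135100 had 0.538, 0.468 and 0.548 RPKM at day 30, against 1.47, 1.59 and 1.35 at day 2 (log2 fold change -0.70, SE 0.15, limma adjusted p = 0.000996).

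By their calls at the 3 consecutive steps, the members took several courses through the low times. For 14 the level fell by day 10, rose by day 20 and rose by day 30, with Csa1G338930 as the one with the highest ratio. These are 19.4% of the members, beside 3.13% of all genes tested. A further 14 fell by day 10 and rose by day 30, with no call between, again 19.4%, beside 12.4% of all genes tested. For 15 no step was called, or 20.8%, beside 22.3%, and 7 rose by day 30 with no other call, or 9.72%, beside 11.2%, both near the background. Csa1G002790 was the flattest member over days 2 to 30. It averaged 9.82 ± 3.09 RPKM in fresh ovaries, 2.30 ± 1.195 at day 2, 2.69 ± 1.85 at day 10, 2.99 ± 1.98 at day 20, 3.06 ± 1.32 at day 30 and 7.37 ± 1.19 at day 60 (SD, n = 3 each). A step that was not called does not show a level that stayed the same, and in this gene the libraries of these 4 times overlapped.

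Whether the pattern recurs in libraries that did not choose it was asked by applying the rule to 2 of the replicate numbers and reading the ratio in the third, with 1 library per time. With replicate 1 left out the rule chose 69 genes, 61 of them among the 72, and in the replicate 1 libraries 50 of the 69 had a ratio of at least 2. With replicate 2 left out it chose 74 genes, of which 52 reached 2 in the replicate 2 libraries. With replicate 3 left out it chose 76, of which 54 reached 2. The median ratio in the libraries left out was 2.29, 2.26 and 2.19, and 69 of 69, 73 of 74 and 75 of 76 genes had a ratio above 1. Among all genes that met the level and 2-fold conditions in the libraries used, 1.08%, 0.910% and 0.799% had a ratio of at least 2 in those left out. The genes of this background were not chosen for their ratio, so a lower share among them was to be awaited and is no test. The libraries of a time may share plants or cultures, so the values show a recurrence between libraries and not between experiments.

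Apart from the levels, the length, the spread within a time and the number in the ID were examined, with no test. Their length, as worked out from the RPKM steps, had a median of 1983.5 bases, with quartiles of 907 and 3206, against a median of 2867 and quartiles of 1497 and 4621 over 18152 genes tested. They ranged from 242 to 10171 bases. Shorter genes gather fewer reads at the same RPKM. The members' spread within a time, as limma's residual SD of log2(RPKM + 1), had a median of 0.23, against 0.19 over all genes tested. A link between length and spread was not tested. The member with the fewest reads had 555 over its 6 libraries of fresh ovaries and day 60 and the lowest count over the 12 libraries of days 2 to 30 was 182.

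By ID the members were spread over the numbers 1 to 7 that follow Csa, with 15 of 72 IDs starting with Csa3, or 20.8%, beside 20.4% of all genes listed. Of the 72, 2 pairs lay within 5 places of each other in the order of IDs, and they were named after their values were seen. Csa1G060770 directly follows Csa1G060760 and had lower means in fresh ovaries and at days 2, 10 and 60, with 8.17 ± 2.76 RPKM in fresh ovaries, 1.51 ± 0.895 at day 2, 0.892 ± 0.430 at day 10, 0.180 ± 0.239 at day 20, 1.495 ± 0.665 at day 30 and 7.03 ± 0.776 at day 60 (SD, n = 3 each). Both genes had their lowest mean at day 20, and both are high and low at the times the rule asked for. The step from day 10 to day 20 was called for Csa1G060760 and not for Csa1G060770, at a log2 fold change of -0.68 (SE 0.29, limma adjusted p = 0.0888). Whether this pair has like sequences is unknown here, as is how the authors counted reads that match several genes. A split of reads between them was not tested. Csa6G028940, at 6.59 ± 0.850 RPKM in fresh ovaries and 5.96 ± 1.07 at day 60, and Csa6G031440, at 48.1 ± 10.2 and 49.2 ± 3.79 RPKM, lay 3 places apart (SD, n = 3 each).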

How the data were processed

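Paired-end Illumina sequencing of poly(A) RNA is described in the labels' protocols, which also name an adipose type, so part of that text may belong to another study. TopHat2, TopHat and HTSeq version 0.6.1p2 stand in the submitters' processing notes, with no role. No build, annotation or strand setting is named. The authors deposited RPKM, per the file headers, for each library, and the 3 library names that share a header cell for fresh ovaries were taken in order.

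As RPKM are not counts, limma 3.58.1 (R 4.3.3) was fitted to log2(RPKM + 1) with a trended, robust variance, for genes with at least 1 RPKM in 3 or more libraries and with all 18 libraries in 1 model. This scale understates fold changes of low genes, and RPKM leaves changes in RNA composition uncorrected. Reads and lengths were recovered for 20811 of 21761 genes above 0 (those above 0 in 4 or more libraries) from the step that 1 read makes. A length was kept only where the gene's values lay close to whole reads. That 100% of the kept values lay within 0.1 of a whole read follows from this choice and is no check. Reads are not independent molecules. Recovery and test were also run on simulated data, with outcomes not given here. The simulated libraries of the test were drawn independently, without the pairing described next. They therefore cannot vouch for the p-values of these data.

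Deviations from the time means correlated between same-numbered libraries at over 0.1 in 11 of the 12 pairs of the 4 comparisons, and in 43 of 45 over all times. The correlations lay at 0.15 to 0.63 in 3 comparisons. In day 10 against day 2 they were 0.21, 0.08 and 0.54 for replicates 1, 2 and 3. The main fit and its p-values leave this pairing out, and a fit with the replicate number as a block is given below. Such pairing is a hint from the data, as the labels give the numbers no meaning.

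The members and lists were chosen with earlier results of these data known. Genes were named by rule: the 2 with the highest ratio, the 2 most abundant, those next to the limit, up to 2 called per direction and comparison with the largest change, the extremes of day 60 over fresh ovaries, and the flattest over days 2 to 30 with a mean of at least 1 RPKM there. Groups by function and markers were not used, since no ID has a name. Other steps used Python 3.11.15, numpy 2.4.6, pandas 2.3.3 and matplotlib 3.10.9.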

Additional observations from a re-analysis of the deposited data

How the results depend on the processing

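Of 372 alternatives of counts, 367 stayed within 1.5 times. Of 390 alternatives of named genes, 0 reversed and 388 kept their call. Many of the 390 left out a library of a time outside the comparison. Those keep the fold change as it was and alter only the shared estimate of the spread, so 388 overstates how far the calls were tried. Since these genes were picked for large changes, the result does not carry over to others. The single member that fell from day 20 to day 30 became 4 by median-ratio scaling, and 2 by upper quartile scaling or without replicate 1 of day 10 and day 20. Leaving out 1 library gave 1 to 2 for this count and 9 to 14 for the members that rose from day 2 to day 10, the 2 libraries left being assumed to vary like other times. The cause was not tested. The rule itself gave 77 genes by median-ratio scaling, 65 of them among the 72, and likewise 77 by upper quartiles, 70 of them among the 72. It gave 89 with 0.1 added, 79 on medians, 69 to 76 without 1 replicate number and 68 without replicate 1 of day 10 and day 20. With the replicate block more genes were called in general. By day 10, 34 members fell and 15 rose (47.2% and 20.8%, all genes 36.5% and 24.9%), by day 20, 12 fell and 22 rose (16.7% and 30.6%, all genes 19.7% and 20.5%), and by day 30, 1 fell and 50 rose (1.39% and 69.4%, all genes 19.2% and 44.7%). The block ended no call of a named gene and moved no count by over 1.5 times. Voom on the recovered reads gave 48 members that rose and 1 that fell by day 30. Voom, the fit on 12 libraries and the fit without 2 libraries were chosen after seeing the data. A count test was planned only for files that hold counts, and was not run on RPKM. Depth limits short members, as 1 RPKM there rests on few reads.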
